A study of Homo sapiens with 4 samples.

Results

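The genes of the Mediator complex were examined in Nalm-6 cells, an established human pre-B leukaemia line, and in lines made from it by disrupting genes of the INO80 chromatin remodeling complex. The 33 genes, out of 17721 genes named on the array, were selected by membership of the complex, and the complex itself was chosen on values of these same 4 arrays: the log2 signal of each member's probes in every group. Their values are therefore a description, with no test.

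Single-colour Agilent arrays were hybridised with total RNA of cells not exposed to oxidative stress, 1 array per group. The groups were wild-type (WT) cells, Arp5 KO cells, Arp8 KO cells and an array labelled Arp8 overexpression. Homologous recombination had disrupted the gene loci in the KO lines, and the design text places a Tet-Off (tetracycline-regulated) Arp8 construct in Arp8-knockout cells. Arp5 and Arp8 are actin-related subunits of INO80, and the study asked how they take part in transcriptional regulation. All arrays came from 1 slide and 1 scan. With 1 array per group no spread between cultures could be measured, and a difference between arrays cannot be told apart from a difference between single cultures or clones.

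Mediator carries signals from activators bound at enhancers to RNA polymerase II at promoters. Its head and middle modules contact the polymerase, MED14 is the scaffold that joins them to the tail, and the tail is the landing surface of many activators. The kinase module, built of CDK8 or CDK19 with cyclin C, MED12 and MED13 or their paralogs, binds the core reversibly and regulates its contact with the polymerase.

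The targeted genes were read first. The signal of ACTR5, the gene of Arp5, was 1909 units in WT, 65.3 in Arp5 KO, 1849 in Arp8 KO and 2088 on the array labelled Arp8 overexpression. Arp5 KO over WT gave a log2 ratio of -4.85. ACTR8, the gene of Arp8, was read by a pair of probes. The dimmer gave 1092 units in WT, 993 in Arp5 KO, 785 in Arp8 KO and 679 on the array labelled Arp8 overexpression, and the other gave 2149, 2233, 1654 and 1857. Neither separated the groups as ACTR5 did. ACTR8 gave a log2 ratio over WT of -0.44 in Arp8 KO and of -0.47 for the array labelled Arp8 overexpression. Between these arrays, Arp8 KO over the latter, the ratio was 0.03, which is only the middle of probes at 0.21 and -0.16. Both probes were below WT on both arrays, and a clear gain was not seen. It is not known here whether the ACTR8 probes lie in the disrupted part, and the array is called by its label throughout.

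Pre-B markers were well above background, the scanner software's call of a signal, for 13 of 13 measured genes on every array, while CD24 had no probe that could be named. Their summed signal, with the brightest probe of each gene, ranged from 368853 units in Arp8 KO to 397196 on the array labelled Arp8 overexpression. IGLL1, the surrogate light chain gene, was the brightest of them in each group, and its signal, 140475 units in WT, weighs so much in the sum that single markers could fall unseen. In Arp8 KO over WT, CD22 had -1.78, VPREB3 -1.20, RAG2 -0.69 and VPREB1 -0.61. In Arp5 KO these markers had -0.74, -0.80, -0.47 and -0.13. The array labelled Arp8 overexpression gave -0.66, 0.04, -0.63 and 0.15 for them. Not above background on any array were 2 of 4 T cell markers (CD3D and CD3G) and 1 of 3 epithelial markers (EPCAM). The brightest marker of these lists was CD3E at 44.9 units in WT for T cells and KRT8 at 941 units for epithelial cells. Another probe of KRT8 gave 2.46 units in WT and was not well above background on any array. The monocyte list summed to 186 units in WT, 182 in Arp5 KO, 282 in Arp8 KO and 275 on the array labelled Arp8 overexpression, with LYZ, the lysozyme gene, at 55.4, 46.3, 143 and 140 units CD14 flat, at 119, 124, 123 and 110 units, and the dim CSF1R at 11.07, 11.01, 16.2 and 25.3 units. The rise in the sum was thus mostly that of LYZ, while CSF1R was higher on the same arrays. Its part in the Mediator values was not tested, and in bulk RNA more cells with a transcript and more transcript per cell cannot be told apart.

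Each of the 33 genes had at least 1 probe, 47 probes in all. The exception to detection was MED12L, a paralog of MED12, whose only probe was not well above background on any array (1.71 units in WT, 1.63 in Arp5 KO, 3.10 in Arp8 KO and 1.80 on the array labelled Arp8 overexpression). Its exclusion left 46 probes, which were above background on all 4 arrays and gave ratios for 32 genes. Signals were bright: 38 probes stayed at or above 500 units on their dimmest array, and only those of MED18 and MED12L dropped under 50. The scanner software's own error was close to 10.0% of the signal, or 0.20 on the log2 scale for a ratio of 2 bright spots. Spots that repeat a probe on the same array varied less than this at bright signals, with a median SD of the log2 ratio of 0.03 above 500 units, 0.06 from 50 to 500 units and 0.23 from 10 to 50 units.

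A log2 ratio compares the scaled signals of 2 arrays, 2-fold is a log2 ratio of 1, and 1.5-fold a ratio of 0.585. In Arp5 KO over WT, 1 Mediator gene was higher beyond 2-fold and 0 lower. Among all named genes with a ratio, 1.14% were higher and 1.38% lower beyond 2-fold, and 8.53% lay beyond 1.5-fold in either direction, where Mediator had 1 gene. In Arp8 KO over WT, 1 Mediator gene was higher beyond 2-fold and 0 lower, beside 1.75% and 1.85% of all genes, and 1 lay beyond 1.5-fold, beside 11.5%. On the array labelled Arp8 overexpression over WT, 1 Mediator gene was higher beyond 2-fold and 0 lower, beside 1.84% and 1.88% of all genes, and 2 lay beyond 1.5-fold, beside 11.4%. In Arp8 KO over the array labelled Arp8 overexpression, 1 Mediator gene was higher and 0 lower beyond 2-fold, beside 0.74% and 1.02% of all genes, and 1 lay beyond 1.5-fold, beside 7.31%. The gene beyond 2-fold was MED18 each time. All genes include dim ones, and of named genes with a mean signal over 500 units, which most members resemble, only 3.71%, 6.22%, 5.91% and 4.13% lay beyond 1.5-fold in these comparisons. Beside them the members had 3.12%, 3.12%, 6.25% and 3.12%. These shares rest on 1 or 2 genes each, MED18 among them every time. They cannot show whether the list was quieter than such genes.

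The middle of the list stayed close to the middle of all genes. The median log2 ratio of Mediator genes was 0.025 in Arp5 KO over WT, beside 0.025 for all named genes, and 0.03 in Arp8 KO over WT, beside 0.03. It was 0.10 on the array labelled Arp8 overexpression over WT, beside 0.03, and -0.04 in Arp8 KO over that array, beside 0.00. The interquartile range of the members was 0.31, 0.25 and 0.18 in the 3 comparisons with WT in that order, while named genes with a mean signal over 500 units spanned 0.30, 0.35 and 0.32. Within 0.25 of 0 lay 65.6% of the measured members in Arp5 KO, beside 64.1% of all named genes and 71.7% of those over 500 units. In Arp8 KO the shares were 81.2%, 59.4% and 65.3%. The array labelled Arp8 overexpression had 78.1%, 60.2% and 67.8%. All 3 comparisons share the WT array.

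**Figure D1:**
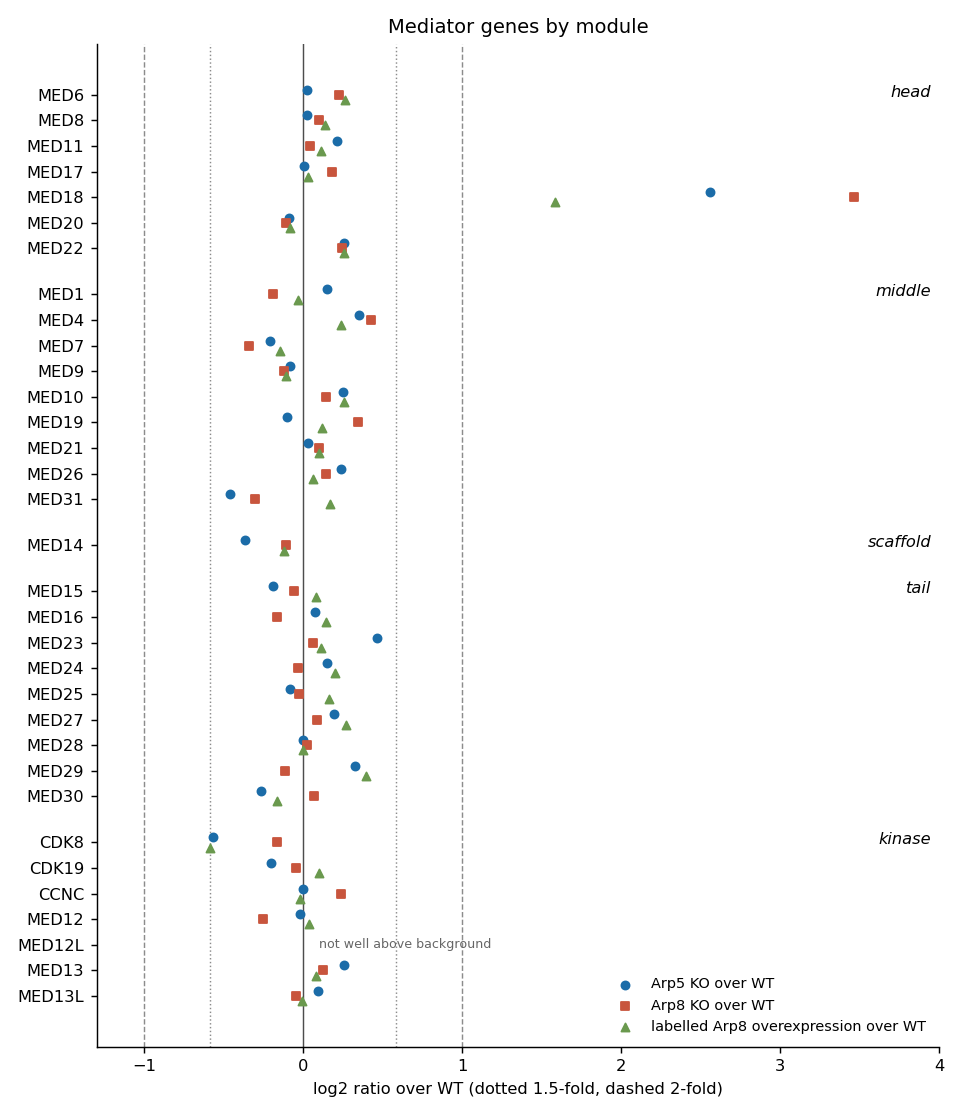
Log2 ratio of each Mediator gene over WT, by module (circles Arp5 KO, squares Arp8 KO, triangles the array labelled Arp8 overexpression; dotted lines 1.5-fold, dashed lines 2-fold). MED18 lies at 2.56, 3.46 and 1.58, CDK8 reaches -0.59, the other members lie within 1.5-fold, and MED12L has no ratio.

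**Figure D2:**
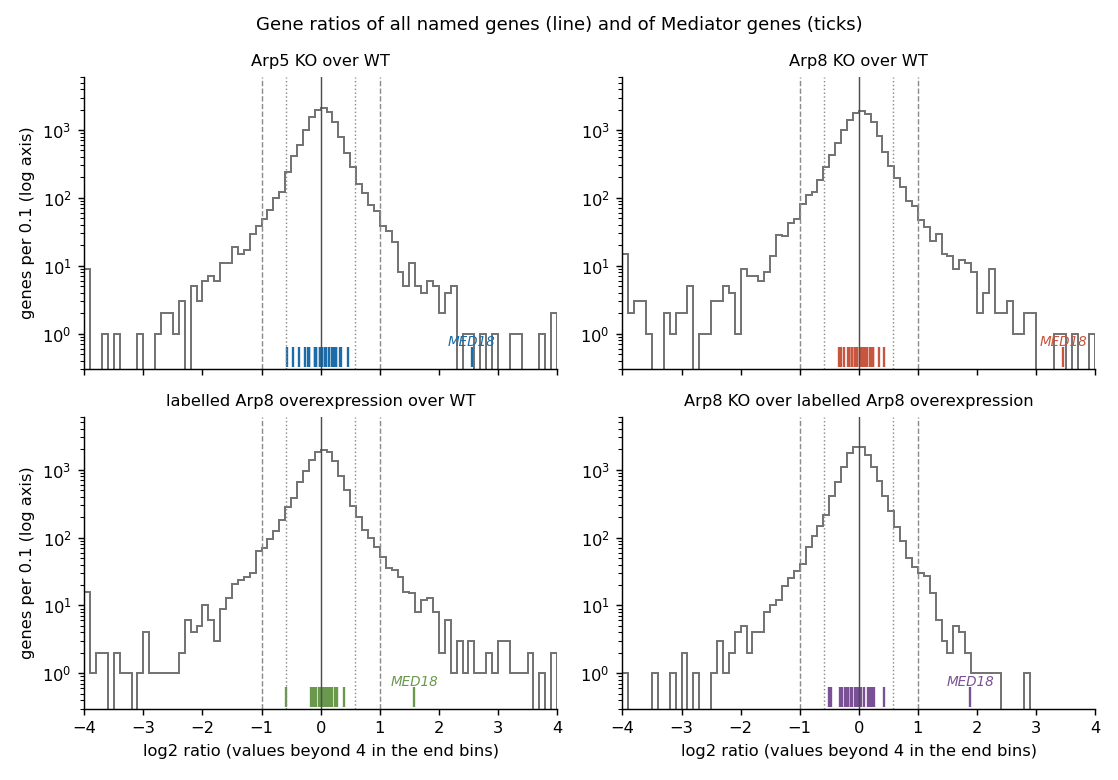
Number of named genes per log2 step of 0.1 (line, log axis) in each of the 4 comparisons, with the Mediator genes as ticks. MED18 stands to the right of the other members in each panel, at 2.56, 3.46, 1.58 and 1.88.

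In the head module, MED18 was apart from the other subunits. MED18 forms with MED20 a movable domain of the head that lies near the polymerase. Its single probe gave 31.2 ± 3.57 units in WT, 181 ± 18.2 in Arp5 KO, 348 ± 34.8 in Arp8 KO and 94.8 ± 9.66 on the array labelled Arp8 overexpression, where the error is that of the scanner software. All 3 other arrays were above WT, and these error ranges did not meet between any 2 arrays. The log2 ratio over WT was 2.56 ± 0.22 in Arp5 KO, 3.46 ± 0.22 in Arp8 KO and 1.58 ± 0.22 on the array labelled Arp8 overexpression, or 5.89-fold, 11.02-fold and 2.99-fold. Arp8 KO over the array labelled Arp8 overexpression gave 1.88 ± 0.21, or 3.68-fold, in a comparison that does not use the WT array. Repeated spots of 10 to 50 units, the range of the WT value, had an SD of at most 0.58 on the log2 scale.

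The MED18 spot was well above background and was not marked as an outlier on any array. Its unprocessed median signal was 65 units in WT over a local background of 21.5, and 397 in Arp8 KO over 24.5. MED18 was ordered among genes well above background on both arrays, which leaves out genes that rose from below background. There it was number 8 of 13259 from the top in Arp5 KO over WT and number 1 of 13084 in Arp8 KO over WT. Among all 13580 named genes with a ratio in Arp8 KO over WT it was not the highest, as TENM2 had 6.66. In the same order of genes above background on both arrays, MED18 was number 65 of 13173 on the array labelled Arp8 overexpression over WT. It was number 5 of 13096 in Arp8 KO over that array. The size, though not the direction, depended on the background correction. With a normexp correction and an offset of 50 units, which compresses ratios of dim spots, the ratios over WT were 1.37, 2.11 and 0.66, so that MED18 was no longer beyond 2-fold on the array labelled Arp8 overexpression.

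The other head subunits had small ratios. The median of the 7 head genes was 0.03 in Arp5 KO, 0.18 in Arp8 KO and 0.14 on the array labelled Arp8 overexpression. MED20, the partner of MED18 in the movable domain, had -0.09 in Arp5 KO, -0.11 in Arp8 KO and -0.08 on the array labelled Arp8 overexpression, all over WT. MED17, the core of the head, had 0.00, 0.18 and 0.03, and MED8, which anchors the MED18 and MED20 pair to it, had 0.03, 0.10 and 0.14. MED22 had 0.26, 0.24 and 0.26 with 3 probes that each lay above 0 in each comparison with WT. MED6, at the joint of head and middle, had 0.03, 0.22 and 0.26, and MED11, the partner of MED22, had 0.21, 0.04 and 0.11.

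**Figure D3:**
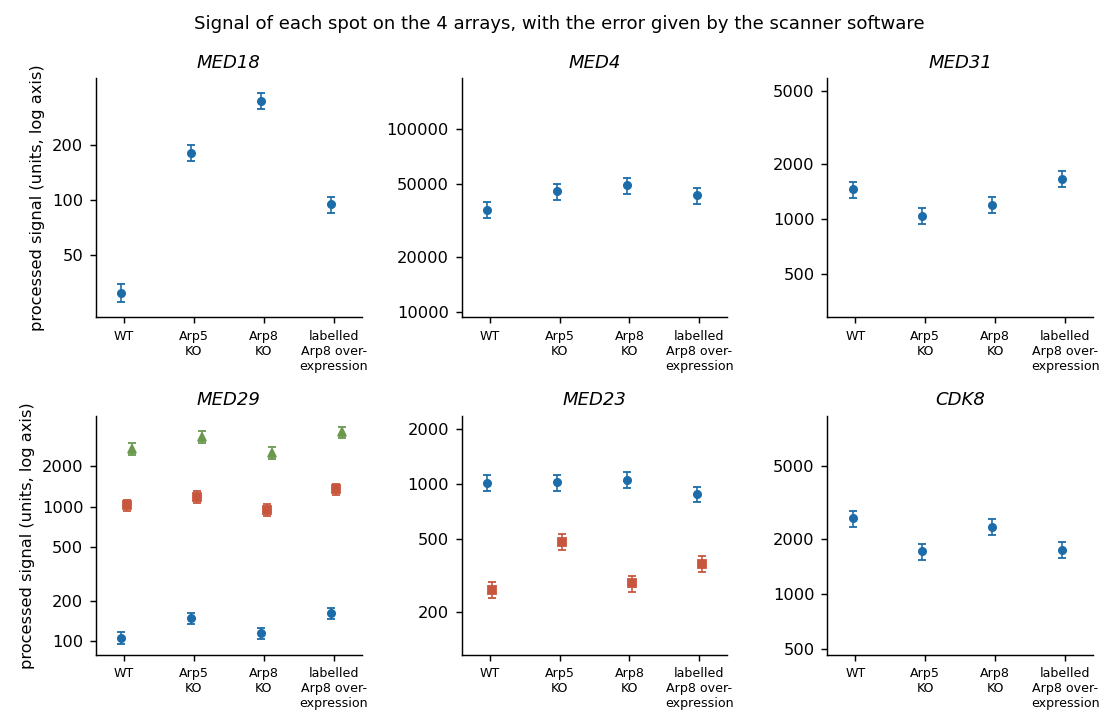
Processed signal (log axis, units) of each probe of 6 Mediator genes on the 4 arrays, with the error of the scanner software as bars and different probes of a gene as different markers. MED18 goes from 31.2 units in WT to 348 in Arp8 KO, while CDK8 has its lowest values in Arp5 KO (1715) and on the array labelled Arp8 overexpression (1747).

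In the middle module no subunit passed 1.5-fold over WT, and the median of its 9 genes was 0.03 in Arp5 KO, 0.10 in Arp8 KO and 0.10 on the array labelled Arp8 overexpression. MED31, the subunit at the end of the middle module near the polymerase, had 1450 units in WT, 1035 in Arp5 KO, 1189 in Arp8 KO and 1652 on the array labelled Arp8 overexpression, or ratios of -0.46, -0.30 and 0.16. Both KO arrays were thus below WT and the array labelled Arp8 overexpression was above it, and Arp8 KO over that array gave -0.47. MED31 was read by 1 probe, and the scanner software's error of each ratio was 0.20. The value of 0.16 lay within this error, and -0.30 was 1.49 times it. MED4, a structural subunit of the middle, had 36309 units in WT, 45588 in Arp5 KO, 49248 in Arp8 KO and 43529 on the array labelled Arp8 overexpression, or ratios of 0.35, 0.42 and 0.24. MED7, which pairs with MED21 and MED31, had -0.21, -0.34 and -0.15, and MED21 had 0.03, 0.10 and 0.10. MED10 had 0.25, 0.14 and 0.25 and MED19 had -0.10, 0.34 and 0.12.

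MED1, which binds nuclear receptors, had 0.15 in Arp5 KO, -0.19 in Arp8 KO and -0.03 on the array labelled Arp8 overexpression. In Arp5 KO the value of MED1 was the median of 3 probes at 0.18, 0.15 and -0.31, and the sign there turned to that of -0.31 when the brightest probe alone was read. MED9 had -0.09, -0.12 and -0.11, and MED26, which recruits elongation factors to the complex, had 0.24, 0.14 and 0.06. The scaffold subunit MED14 had -0.37 in Arp5 KO, -0.11 in Arp8 KO and -0.12 on the array labelled Arp8 overexpression. These 3 values of MED14 were below 0 under each scaling tried.

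In the tail module, which receives activators, MED23 and MED29 had the highest ratios in Arp5 KO over WT. MED29 had 3 probes, and in each of them the higher signals were those of Arp5 KO and of the array labelled Arp8 overexpression. Its brightest probe gave 2690 units in WT, 3314 in Arp5 KO, 2510 in Arp8 KO and 3588 on the array labelled Arp8 overexpression. Its gene ratio was 0.32 in Arp5 KO, -0.12 in Arp8 KO and 0.39 on the array labelled Arp8 overexpression over WT. Arp8 KO over that array gave -0.51, and the 3 probes there were at -0.49, -0.51 and -0.51. MED29 was the lowest Mediator gene of this comparison.

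MED23, the tail subunit that binds the MAP kinase target ELK1, had probes that did not go together. The first gave 1014 units in WT, 1018 in Arp5 KO, 1049 in Arp8 KO and 879 on the array labelled Arp8 overexpression. Its second probe gave 264 units in WT, 484 in Arp5 KO, 285 in Arp8 KO and 366 on the array labelled Arp8 overexpression. In Arp5 KO over WT the probes were at 0.03 and 0.89, a gap of 0.87, and the gene ratio of 0.46 is only their middle. This was the largest gap of a member there and on the array labelled Arp8 overexpression, while in Arp8 KO the largest was 0.24, for MED13. The median gap over the 11 members with several probes, MED23 among them, was 0.18 in Arp5 KO, 0.10 in Arp8 KO and 0.13 on the array labelled Arp8 overexpression over WT.

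The remaining tail subunits were close to WT, and the median of the 9 tail genes was 0.07 in Arp5 KO, -0.03 in Arp8 KO and 0.14 on the array labelled Arp8 overexpression. MED15, a target of activators of lipid genes, had -0.19 in Arp5 KO, -0.06 in Arp8 KO and 0.08 on the array labelled Arp8 overexpression. MED16 had 0.07, -0.17 and 0.14, MED24 had 0.15, -0.04 and 0.20, and MED25, which binds viral and cellular activators, had -0.09, -0.03 and 0.16. Of the subunits that link the tail to the core, MED27 had 0.19, 0.09 and 0.27, MED28 had 0.00, 0.02 and 0.00, and MED30 had -0.26, 0.07 and -0.17. In Arp8 KO over the array labelled Arp8 overexpression the tail had a median of -0.18, beside 0.00 for all genes, from -0.51 for MED29 to 0.24 for MED30.

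In the kinase module, CDK8 was the lowest gene over WT in Arp5 KO and on the array labelled Arp8 overexpression, while MED12 was the lowest in Arp8 KO. CDK8, a cyclin-dependent kinase that phosphorylates transcription factors, had 2587 ± 259 units in WT, 1715 ± 171 in Arp5 KO, 2336 ± 234 in Arp8 KO and 1747 ± 175 on the array labelled Arp8 overexpression. Low values were those of Arp5 KO and of the array labelled Arp8 overexpression, while Arp8 KO lay near WT. The log2 ratio over WT was -0.57 ± 0.20 in Arp5 KO, -0.16 ± 0.20 in Arp8 KO and -0.59 ± 0.20 on the array labelled Arp8 overexpression, which is 1.49-fold lower, 1.12-fold lower and 1.505-fold lower. CDK8 stood at the 1.5-fold line, and the choice of scaling set its side. It was beyond the line in Arp5 KO with 4 other scalings, and it was within the line on the array labelled Arp8 overexpression without scaling or with median scaling.

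The other kinase module genes were closer to WT than CDK8 on those arrays, though in Arp8 KO both MED12 and CCNC were further from WT. The median of the 6 measured genes was -0.01 in Arp5 KO, -0.05 in Arp8 KO and 0.01 on the array labelled Arp8 overexpression. CDK19, the paralog that can take the place of CDK8, had -0.21 in Arp5 KO, -0.04 in Arp8 KO and 0.10 on the array labelled Arp8 overexpression over WT. CCNC, cyclin C, had -0.01, 0.23 and -0.02. MED12, which activates the kinase, had -0.02, -0.25 and 0.04, and the link to the core, MED13, had 0.26, 0.12 and 0.08. MED13L, the paralog of MED13, had 0.09, -0.05 and -0.01. Arp8 KO over the array labelled Arp8 overexpression placed CDK8 at 0.42, CCNC at 0.25 and MED12 at -0.29.

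The position of MED18 on chromosome 1 was examined through its neighbours. In RefSeq order on GRCh38.p14 the 3 protein-coding genes before MED18 are DNAJC8, ATP5IF1 and SESN2, and the 3 after it are PHACTR4, RCC1 and TRNAU1AP. Beyond 1.5-fold over WT were SESN2 in Arp8 KO, beside 11.5% of all genes, and, at the line, ATP5IF1 in Arp5 KO, beside 8.53%. Under each of 5 other scalings ATP5IF1 was within the line there, from 0.51 to 0.57. None of the 6 neighbours was beyond 2-fold, where only 2.52%, 3.59% and 3.73% of all genes lay. SESN2, a stress-induced regulator of metabolism, had 0.37 in Arp5 KO, 0.84 in Arp8 KO and 0.35 on the array labelled Arp8 overexpression. ATP5IF1, the inhibitor of the mitochondrial ATP synthase, had 0.59, 0.29 and 0.37. TRNAU1AP, a selenocysteine tRNA factor, had 0.51, 0.03 and 0.27. DNAJC8 had 0.05, -0.19 and -0.07, RCC1, the nucleotide exchange factor of Ran, had -0.01, -0.09 and 0.01, and PHACTR4 had -0.03, -0.08 and -0.10.

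**Figure D4:**
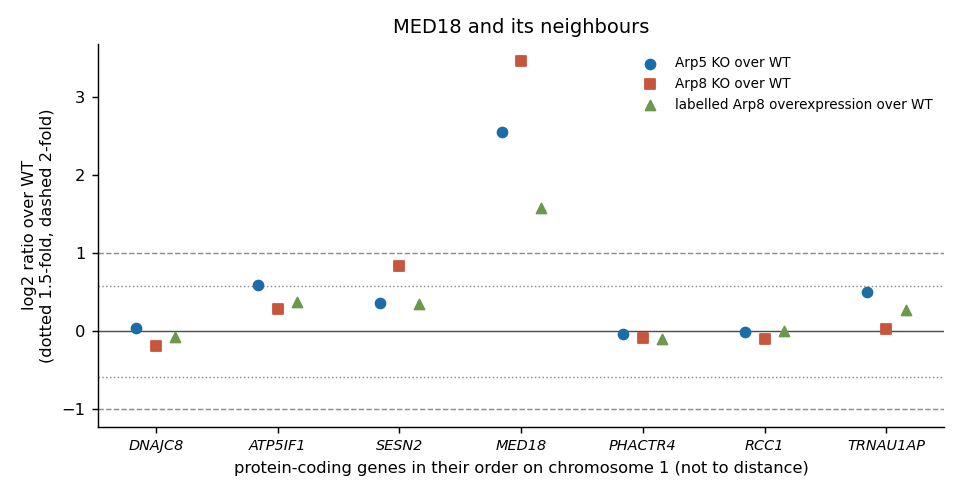
Log2 ratio over WT (circles Arp5 KO, squares Arp8 KO, triangles the array labelled Arp8 overexpression) of MED18 and of the 3 protein-coding genes on each side, in chromosome order and not to distance. MED18 lies at 1.58 or above, and the highest value of a neighbour is 0.84, that of SESN2.

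Promoter sequences, 250 bases before to 50 after the start, were available from RefSeq (GRCh38.p14) for 25 of the 33 genes. The promoters of MED18 and CDK8 are printed because these were the members that passed 1.5-fold over WT on an array. MED18 lies at chr1:28328790-28329089 on the plus strand and CDK8 at chr13:26253879-26254178 on the plus strand. The capitals mark matches, on either strand, to letters that were chosen after the MED18 promoter had been read: TGACGTCA (cyclic AMP response element), TGANTCA (AP-1), GCCATNTT (YY1), GCATGCGC (part of the NRF1 motif), CCGGAAG (ETS), GGGCGG (GC box), CCAAT and TATAAA.
MED18: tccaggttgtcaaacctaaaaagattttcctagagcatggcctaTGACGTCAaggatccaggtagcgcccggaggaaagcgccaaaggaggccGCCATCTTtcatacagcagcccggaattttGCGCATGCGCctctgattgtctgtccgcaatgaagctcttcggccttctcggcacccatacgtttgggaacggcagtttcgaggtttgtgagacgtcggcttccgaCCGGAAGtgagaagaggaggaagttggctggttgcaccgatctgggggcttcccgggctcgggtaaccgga
CDK8: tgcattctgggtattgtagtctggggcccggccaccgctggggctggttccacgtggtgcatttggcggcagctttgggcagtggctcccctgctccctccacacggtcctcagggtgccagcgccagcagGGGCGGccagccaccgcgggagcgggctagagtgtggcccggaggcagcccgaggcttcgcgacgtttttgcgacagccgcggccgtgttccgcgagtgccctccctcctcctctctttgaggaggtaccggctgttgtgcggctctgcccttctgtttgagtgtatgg
The MED18 window held TGACGTCA 206 bases before the start, and it was the only member window of the 25 genes to do so, beside 1.85% of 35116 promoters. It held GCCATCTT 157 bases before the start, and the letters GCCATNTT were found in 8 of the 25 member genes and in 6.58% of promoters. The run GCATGCGC was present on both strands in overlapping positions, 127 and 125 bases before the start, and was found in 2 member genes, MED18 and CDK19, and in 3.05% of promoters. CCGGAAG lay 21 bases before the start, in 7 member genes and in 10.3% of promoters. CDK8 held 1 match, GGGCGG 119 bases before the start, which 16 member genes and 45% of promoters held. The AP-1 letters were found in 3 member genes, MED9, MED15 and MED17, and in 7.71% of promoters. CCAAT was found in 10 member genes and 34.6% of promoters, and TATAAA in 2 member genes and 11.5% of promoters. Member counts are per gene, over 30 promoter records of the 25 genes, while the share of promoters is per record. A match describes these letters only.

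Other parts of the transcription machinery were set beside Mediator. Of the 12 RNA polymerase II subunit genes, 0 were beyond 1.5-fold over WT on any array, beside 8.53% of all genes in Arp5 KO, 11.5% in Arp8 KO and 11.4% on the array labelled Arp8 overexpression, so that 0 in a list this short says little. Their median log2 ratio was -0.03 in Arp5 KO, 0.08 in Arp8 KO and 0.12 on the array labelled Arp8 overexpression, from -0.26 (POLR2L) to 0.33 (POLR2K). Of 30 measured general transcription factor genes 1 was beyond 1.5-fold, TAF5, a TFIID subunit, at -0.90 in Arp8 KO, beside the same shares of all genes. TAF7, another TFIID subunit, had 0.54 on the array labelled Arp8 overexpression and passed the line, at 0.59, with another scaling. TAF5 had -0.45 in Arp5 KO and -0.46 on the array labelled Arp8 overexpression. That list had a median of 0.04, 0.10 and 0.03, and GTF2H2 had no probe that could be named.

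The elongation list held values in both directions. Of its 14 measured genes, HEXIM1, the inhibitor of the elongation kinase P-TEFb, was higher on each array, at 0.83 in Arp5 KO, 0.78 in Arp8 KO and 0.76 on the array labelled Arp8 overexpression. CCNT1, the cyclin of that kinase, was lower, at -0.52, -0.64 and -0.79, and its kinase CDK9 had 0.28, -0.19 and 0.18. The CCNT1 spot was dim, at 77.6 units in WT, and with the normexp correction its ratios were -0.10, -0.15 and -0.25. ELL3, an elongation factor, had 0.00, -0.87 and -0.37. MLLT3 had no ratio because none of its 2 probes was well above background. The list's median was 0.07, 0.05 and 0.08. Beyond 1.5-fold it had 1 gene higher and 0 lower in Arp5 KO, 1 higher and 2 lower in Arp8 KO, and 1 higher and 1 lower on the array labelled Arp8 overexpression, beside 8.53%, 11.5% and 11.4% of all genes in either direction.

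Cohesin, which holds enhancer and promoter loops together with Mediator, had a median of -0.11 in Arp5 KO, -0.28 in Arp8 KO and -0.17 on the array labelled Arp8 overexpression, beside 0.02, 0.03 and 0.03 for all genes. Each of the 7 genes was below 0 both in Arp8 KO and on the array labelled Arp8 overexpression. Among all named genes with a ratio, 6289 of 13580 and 6208 of 13659 were below 0 there. Both comparisons share the WT array, so their signs are not independent. In Arp8 KO over the array labelled Arp8 overexpression, which does not use WT, the cohesin median was -0.11. There 6 of the 7 genes were below 0, beside 6808 of 13506 named genes. In Arp5 KO the probe choice mattered: 4 genes were below 0, but SMC1A, STAG2 and NIPBL had probes of both signs, and with the brightest probe of each gene the median was -0.24. The values in Arp8 KO went from -0.89 for STAG1, a cohesin subunit, to -0.11 for NIPBL, the loader, with MAU2, the partner of NIPBL, at -0.60. In Arp8 KO probes of both signs were seen for SMC1A, at -0.36 and 0.08, and for NIPBL, at -0.11, 0.04 and -0.17. With another scaling SMC1A and RAD21 were above 0 on the array labelled Arp8 overexpression, at 0.04 and 0.01. Beyond 1.5-fold lay 2 of the 7 in Arp8 KO, beside 11.5% of all genes, and 0 on the other arrays. Of these, MAU2 was within the line, at -0.56, with another scaling. The cohesin medians were below 0 under each of 5 other scalings.

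**Figure D5:**
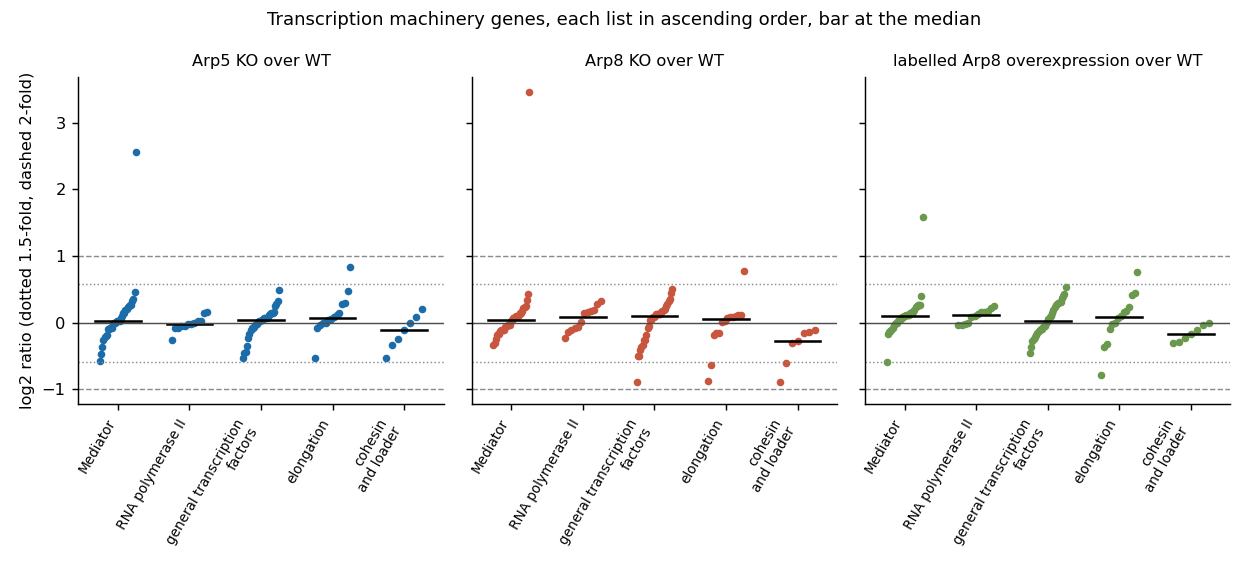
Log2 ratio over WT of the genes of Mediator and of the related lists in ascending order, with a bar at each median (dotted lines 1.5-fold, dashed lines 2-fold). MED18 is the only point beyond 2-fold, and the cohesin median lies below 0 in each panel, at -0.11, -0.28 and -0.17.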

How the data were processed

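The deposited scanner files hold intensity values: per the file headers, the authors ran Agilent Feature Extraction 10.5.1.1 (1 colour), and the signal used was background-subtracted and not scaled between arrays. It was put on the log2 scale, and the array's 75th percentile over 43376 spots was subtracted (1980 units in WT, 1950 in Arp5 KO, 2004 in Arp8 KO, 2012 on the array labelled Arp8 overexpression). Outlier spots were dropped. A ratio was used where the brighter array was well above background, and the dimmer was raised to that array's lowest such signal. A gene's ratio is the median over its probes. Probes were named by accession through RefSeq (GRCh38.p14), 26222 of 41000. Spots well above background were 71.9%, 72.4%, 70.1% and 71.0% in the same order. The deposited value table is the same intensity times a factor for each array (0.847, 0.838, 0.825 and 0.807), with medians of 127, 128, 122 and 119 units. The ratio and count steps were tested on simulated data. Members and lists were chosen with earlier results of these data known. Genes were given in full where a member lay beyond 1.5-fold over WT on an array or its probes disagreed by over 1 on the log2 scale. The 6 genes drawn by signal, and those given from related lists, were taken after their values were seen. Python 3.11.15, numpy 2.4.6, pandas 2.3.3, matplotlib 3.10.9, R 4.3.3 and limma 3.58.1 were used. The results of 1 marker list are not reported here.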

Additional observations from a re-analysis of the deposited data

How the results depend on the processing

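Over 12 alternatives, the median log2 ratio of Mediator genes lay between -0.02 and 0.03 in Arp5 KO over WT, 0.01 and 0.07 in Arp8 KO over WT, 0.05 and 0.15 on the array labelled Arp8 overexpression over WT, and -0.05 and -0.01 in Arp8 KO over that array. The largest shift of the median of all genes was 0.05. The number of Mediator genes beyond 1.5-fold in Arp5 KO over WT was 2 in place of 1 with the percentile taken over probes above background on all arrays, without scaling, with median scaling and with the deposited value table. On the array labelled Arp8 overexpression over WT it was 1 in place of 2 without scaling and with median scaling, and the number beyond 2-fold was 0 in place of 1 with the normexp correction. In both comparisons of Arp8 KO the number beyond 1.5-fold was 2 in place of 1 with no filter on dim probes. The member that changed side was CDK8 with the scalings, MED18 with normexp and MED12L, below background, with no filter. Of 1408 single-gene values, 1400 moved by less than the scanner software's error of the ratio, 8 moved by more and 0 turned the sign of a member beyond 1.5-fold. Read against the array labelled Arp8 overexpression in place of WT, MED18 had 0.98 in Arp5 KO and 1.88 in Arp8 KO. With 1 array per group there is no replicate check, and MED18 rests on 1 spot that was dim in WT. No paired analysis was possible because each group has 1 array.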
